A study of Ramazzottius varieornatus and Hypsibius exemplaris with 16 samples.

Results

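Storage cells of the tardigrade Hypsibius exemplaris were compared with active whole animals of the same species to find which transcripts these cells carry. The comparison used the 8 libraries that the labels assign to H. exemplaris, out of 16 in the series. Of these, 5 are libraries of storage cells and 3 are libraries of active whole bodies, all of strain Z151 kept at 18 °C on agar and fed with Chlorella. Storage cells were freed by cutting animals open in dilute buffered saline and drawn up as they came out. The number of animals or cells behind a library is not stated in the labels. The labels call the libraries biological replicates and name no genetic change and no drug in either group. The descriptions of the whole bodies also hold the term Chlorella48h, which they do not explain.

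Storage cells float freely in the fluid of the tardigrade body cavity. They hold reserves such as lipid, glycogen and protein, and their content is known to vary with feeding and with the reproductive state of the animal. A whole-body library contains them too, beside muscle, gut, epidermis, nervous system and germ line. The files list 20853 targets, each a transcript model with an identifier, and 0 of these identifiers were found in the gene table used here, which covers another species. Targets are therefore named by identifier only, no marker gene of storage cells or of any other tissue could be looked up, and the tissue labels were not checked against markers.

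Estimated counts summed to between 5437134 and 5807509 in each of the 3 whole-body libraries and to between 7680812 and 10343744 in each of the 5 of storage cells. Whole-body RNA was purified on columns from lysed animals, whereas storage cells went straight into the lysis buffer of SMART-Seq v4, a method that makes and amplifies full-length cDNA from small amounts of RNA, and libraries of both kinds were amplified with it. The way RNA was obtained and the sample type cannot be told apart in this design, nor can fewer cells of a type and less RNA per cell. Estimated counts more than 1e-06 away from a whole number made up 13.3% to 16.4% of the counts above 0 in a library, because reads were divided among similar targets.

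In storage cells, a small number of targets held as much of the transcript pool as a far longer list did in whole bodies. Levels are given as TPM, the abundance unit of the deposited tables, which is the count divided by the effective length of the target and scaled to the same total in each library. In whole bodies, 340, 381 and 287 targets held 50% of the TPM of replicates 1, 2 and 3. In storage cells the corresponding numbers were 17, 73, 78, 25 and 41 in replicates 1 to 5. The groups were far apart, and replicate 1 of the storage cells needed the fewest targets. The mean was 336 ± 47.1 targets in whole bodies (SD, n = 3) and 46.8 ± 27.6 in storage cells (SD, n = 5), a difference of -289 targets (two-sided exact permutation test over 56 assignments, p = 0.0179, the smallest the design allows). For 90% of the TPM, 4297 ± 298 targets were needed in whole bodies (SD, n = 3) and 1139 ± 269 in storage cells (SD, n = 5), with the same p of 0.0179 in the exact permutation test. By that measure replicate 5 needed the fewest, with 832 targets.

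**Figure D1:**
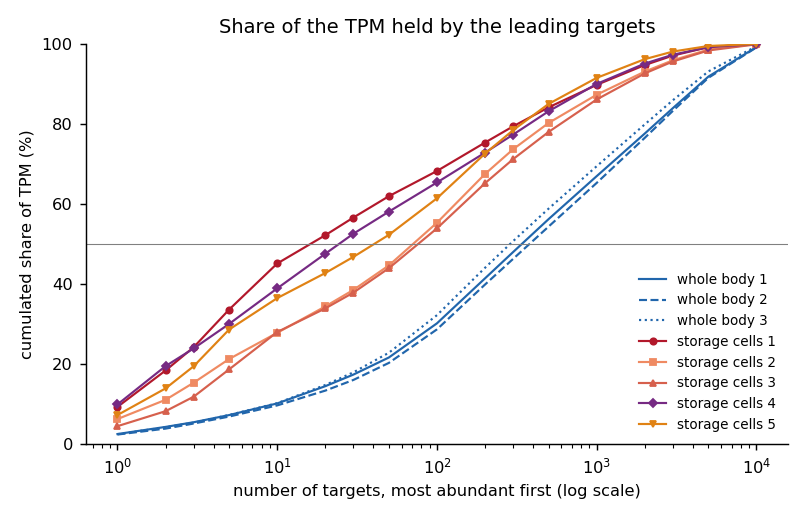
Cumulated share of the TPM (y axis, percent) against the number of targets taken from the most abundant downwards (x axis, log scale), 1 line per library and a grey line at 50%. The 5 storage cell lines lie above the 3 whole-body lines at every number plotted up to 5000 targets, and at 100 targets they stand between 53.9% and 68.3% against 28.7% to 32.2%.

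The single most abundant target already separated the groups. It held 2.39% to 2.52% of the TPM in whole bodies, always the same target, and from 4.48% to 9.91% in the storage cell libraries (two-sided exact permutation test, p = 0.0357). The 100 most abundant targets of a library held 30.4% ± 1.78 of the TPM in whole bodies (SD, n = 3) and 60.9% ± 6.21 in storage cells (SD, n = 5), so the 2 groups did not overlap (exact permutation test, two-sided, p = 0.0179).

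Storage cells had fewer targets of middle abundance. The number of targets at 10 to under 100 TPM was 6839, 6817 and 6389 in whole bodies and 3190, 3625, 3537, 2878 and 2488 in storage cells. Every storage cell library had fewer such targets than every whole body. The mean difference was -3538 targets (exact permutation test with Benjamini-Hochberg adjustment over 6 TPM classes, adjusted p = 0.0357). Between 100 and 1000 TPM the number fell from 1396 ± 65.6 (SD, n = 3) to 760 ± 71.6 (SD, n = 5), with the same adjusted p of 0.0357 in the exact permutation test. Targets listed at 0 rose from 5927 ± 253 (SD, n = 3) to 10212 ± 1333 (SD, n = 5), again with an adjusted p of 0.0357 by exact permutation.

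The groups overlapped at 1000 TPM or more and in the classes above 0 and under 10 TPM. There were 171, 166 and 178 targets of at least 1000 TPM in whole bodies, and 98, 172, 162, 103 and 163 in storage cells. Replicates 1 and 4 of the storage cells had the fewest, while the others were close to whole bodies, and the difference of -32.1 targets did not pass (exact permutation test, adjusted p = 0.241). The classes of 1 to under 10 TPM (adjusted p = 0.3) and of more than 0 and less than 1 TPM (adjusted p = 0.5) did not pass either by exact permutation. Since TPM values share a fixed total, the classes were counted again, as a step added after the values had been seen, with the 100 leading targets of each library set aside and the remainder rescaled. The class of 10 to under 100 TPM was still smaller by -2874 targets (exact permutation test, adjusted p = 0.0268), whereas the class of at least 1000 TPM was then larger in storage cells, by 84.6 targets (exact permutation test, adjusted p = 0.0268).

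The 3 passing differences kept their direction when any 1 library was left out. The adjusted p then exceeded 0.05 in each case except without storage cell replicate 3, with values between 0.0857 and 0.114 (exact permutation tests over fewer splits). The smallest unadjusted p of these tests is 0.0476 without a whole body and 0.0286 without a storage cell library. With only 3 classes at that smallest value, the adjusted p cannot fall below 0.05. For the classes of 10 to under 100 and 100 to under 1000 TPM, the losses are therefore set by the number of libraries. They do not show that these differences are fragile. The same holds for targets listed at 0 without a whole body (exact permutation test, adjusted p = 0.0952). Without storage cell replicate 1, 2, 4 or 5, targets listed at 0 were not at the smallest value. Their adjusted p was 0.114, against 0.0857 in the other passing classes (exact permutation tests). The number of libraries alone does not account for that loss. Without storage cell replicate 3, the class of 1 to under 10 TPM also passed, at -564 targets (exact permutation test, adjusted p = 0.0429).

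**Figure D2:**
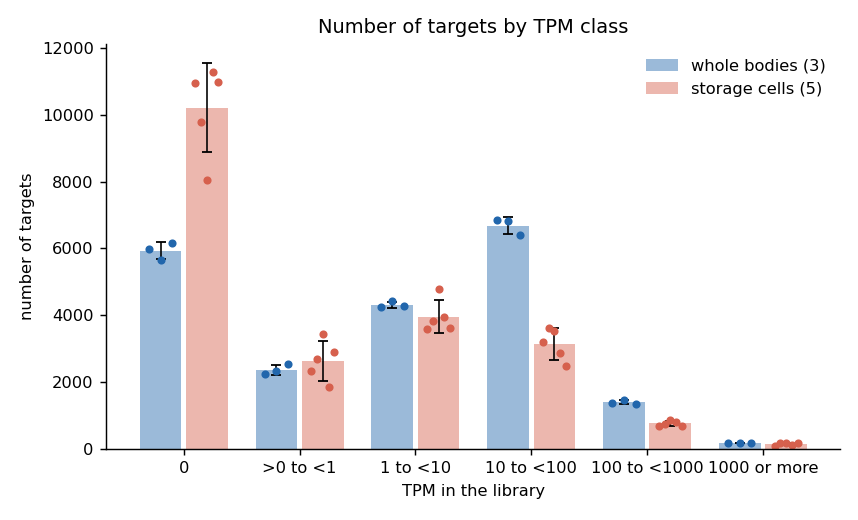
Number of targets (y axis) in 6 classes of TPM within each library (x axis), with bars for the group mean, error bars for the SD and points for the 3 whole-body and 5 storage cell libraries. Storage cells have about 10212 targets at 0 against 5927, and fewer targets between 10 and 1000 TPM.

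Targets at 0 in storage cells were found far up the abundance range of whole bodies. Of 4385 targets with a mean of 1 to under 10 TPM in whole bodies, 53.6%, 44.0%, 25.4%, 56.6% and 53.6% had a count of 0 in storage cell replicates 1 to 5. Of 1384 targets at 100 to under 1000 TPM in whole bodies, 9.1%, 6.79%, 4.77%, 11.4% and 13.3% were at 0, and of 176 targets at 1000 TPM or more, 6.25%, 5.68%, 3.98%, 5.11% and 12.5%. Replicate 3 had the fewest targets at 0 at each of these levels. A whole-body library, read against the mean of the other whole bodies, had 4.02% to 5.74% at 0 in the lowest of these classes and 0% from 100 TPM upwards. A count of 0 in all 5 storage cell libraries was shared by 684, 233, 36 and 3 targets of the classes from 1, 10, 100 and 1000 TPM. A count of 0 in a library allows up to 3 counts at its depth, which covers counting error only.

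**Figure D3:**
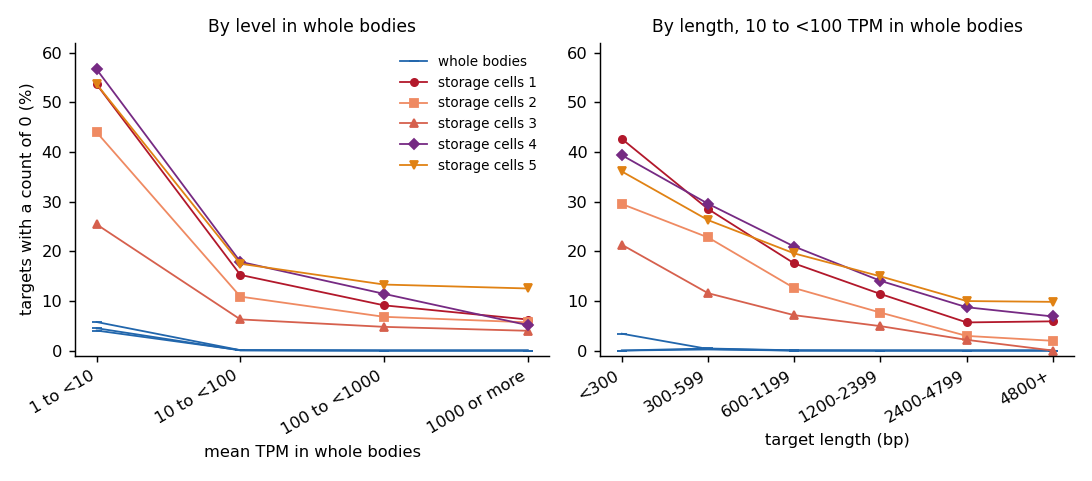
Share of targets with a count of 0 (y axis, percent) in each library, by mean TPM in whole bodies (left) and by target length among targets of 10 to under 100 TPM in whole bodies (right). Storage cell lines fall from 25.4% to 56.6% in the lowest class to 3.98% to 12.5% in the highest, and whole-body lines stay at or below 5.74%.

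The 10 targets with the highest mean TPM in storage cells together held 35.3%, 25.4%, 20.3%, 28.9% and 32.0% of the TPM of replicates 1 to 5. In whole bodies the same 10 targets held 5.44% to 5.64%, as a description, since they were picked for their storage cell level. They were between 438 and 1263 bp long. In the test over all 11764 targets kept by the filter, 3 of the 10 were called higher in storage cells and none lower (edgeR quasi-likelihood test, adjusted p below 0.05), where 13.2% of all targets tested were called higher. On the scale of TMM-normalized CPM (counts scaled to library size, without division by length), the 5 storage cell values lay above the 3 whole-body values for 5 of the 10, against 16.2% of all targets tested. Because the 10 were picked by their storage cell level, both counts describe them and support nothing.

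Target BV898_18925.t01 (438 bp) was the most constant of the leaders. It stood at 262, 330 and 339 TPM in whole bodies and at 58118, 48137, 37442, 95823 and 41016 TPM in storage cells, where its rank was 2 in replicates 2, 3 and 4, 3 in replicate 1 and 5 in replicate 5. No storage cell library came near a whole body. On TMM-scaled counts the storage cells were higher by 9.16 on the log2 scale (SE 1.34; edgeR, adjusted p = 0.00343), and the call held with each library left out (adjusted p of up to 0.0368).

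Other leaders differed in which libraries carried them. Target BV898_01325.t01 (1263 bp) stood at 93024 and 99117 TPM in storage cell replicates 1 and 4, where it ranked first, and at 13769, 5448 and 5469 TPM in replicates 2, 3 and 5. Whole bodies had 2919, 1876 and 2508 TPM, below every storage cell library. The log2 fold change, 5.63 (SE 2.22), missed the threshold (edgeR adjusted p = 0.0843), whereas on log2(TPM + 1) the difference of 3.11 passed (limma adjusted p = 0.0469). Target BV898_02514.t01 (612 bp) was also highest in replicates 1 and 4, with 41286 and 10045 TPM in replicates 1 and 4 and 2313, 483 and 261 TPM in replicates 2, 3 and 5. Replicates 3 and 5 lay below the whole bodies, which had 1035, 1254 and 1334 TPM, so the groups overlapped (log2 fold change 4.81, SE 1.9, edgeR adjusted p = 0.0848). Without storage cell replicate 3 it passed (log2 fold change 5.41, edgeR adjusted p = 0.0402).

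Replicates 2, 3 and 5 were led by other targets. BV898_16263.t01 (507 bp) had 42734, 44833 and 72614 TPM there, 13009 TPM in replicate 4 and 2470 TPM in replicate 1. The last value was just above the whole bodies, at 2004, 1757 and 2124 TPM. Its log2 fold change of 5.9 (SE 1.57) passed (edgeR adjusted p = 0.0221), but not without whole-body replicate 1, 2 or 3 (adjusted p of 0.109, 0.11 and 0.0976). BV898_00195.t01 (948 bp) had 18002, 13690 and 27518 TPM in replicates 2, 3 and 5, 4552 TPM in replicate 4 and 1204 TPM in replicate 1. Replicate 1 lay below the whole bodies, at 2067, 2209 and 1334 TPM, although on TMM-scaled CPM all 5 storage cell values were higher. Its log2 fold change was 4.54 (SE 1.45, edgeR adjusted p = 0.0435), and the call was lost without any of the 3 whole bodies or without storage cell replicate 2 or 5 (adjusted p of 0.0508 to 0.167). On log2(TPM + 1) the difference was 2.17 (limma adjusted p = 0.0919).

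A further trio of leaders was already abundant in whole bodies, where their mean ranks were 1, 3 and 4. BV898_16259.t01 (492 bp) stood at 25191, 23892 and 24764 TPM in whole bodies and at 3006, 30492, 34014, 22127 and 50800 TPM in storage cell replicates 1 to 5. The storage cell values lay on both sides of the whole bodies. Reads were shared with another target in 6 of the 8 libraries, so its level is uncertain. BV898_07018.t01 (561 bp) had 11689, 12707 and 11535 TPM in whole bodies and 7695, 28782, 32861, 38695 and 66609 TPM in storage cells, with replicate 1 alone below the whole bodies. On TMM-scaled CPM, all 5 storage cell values of this target were higher. Its log2 fold change of 3.31 (SE 1.22) missed the threshold (edgeR adjusted p = 0.0698) and passed without storage cell replicate 1 (3.57, adjusted p = 0.0255). BV898_01079.t01 (801 bp) had 10157, 9389 and 9951 TPM in whole bodies against 3267, 62603, 34293, 5449 and 55352 TPM in storage cells. Here replicates 1 and 4 lay below the whole bodies and the other three above (log2 fold change 3.25, SE 1.51, edgeR adjusted p = 0.131).

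The remaining pair owed their place to replicate 1. BV898_13827.t01 (603 bp) stood at 91019 TPM there, at 4622 TPM in replicate 2 and at 3.08, 20.1 and 0.461 TPM in replicates 3, 4 and 5, while whole bodies had 314, 304 and 183 TPM. BV898_16073.t01 (855 bp) had 52081 TPM in replicate 1, 2443 TPM in replicate 2, 2.71 and 0.197 TPM in replicates 3 and 4 and was listed at 0 in replicate 5, against 796, 702 and 385 TPM in whole bodies. For both, 3 of the 5 storage cell libraries were far below the whole bodies and 2 were above. Neither passed the test, with log2 fold changes of 7.82 (SE 4.02, edgeR adjusted p = 0.167) and 5.47 (SE 3.89). With log2(TPM + 1) in place of counts, the estimates turned to -0.90 and -3.41 and did not pass either (limma adjusted p of 0.818 and 0.4).

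**Figure D4:**
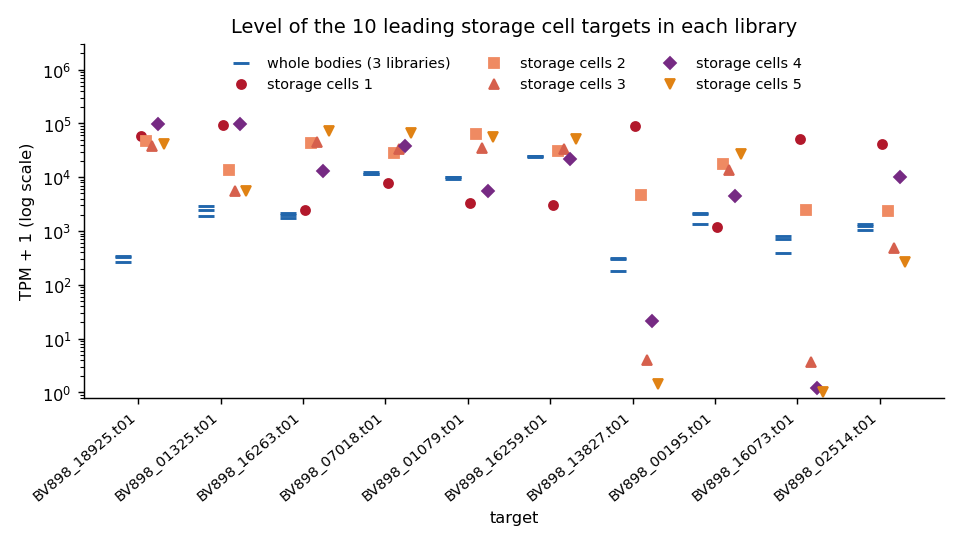
Level in each library (y axis, TPM + 1, log scale) of the 10 targets with the highest mean TPM in storage cells (x axis, in that order), with dashes for the 3 whole bodies and 1 symbol for each of the 5 storage cell libraries. BV898_18925.t01 is high in all 5, whereas BV898_13827.t01 runs from 0.461 to 91019 TPM.

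Which targets led a storage cell library depended on the library. Across the 5 libraries, 27 targets were among the 10 most abundant of at least 1 library, and 17 of them in 1 library only. A single target, BV898_18925.t01, was among the first 10 of all 5. In the 3 whole bodies, 13 targets reached the first 10 and 7 were shared by all. Of the 100 most abundant targets, 87 to 89 were shared by each pair of whole bodies. Storage cell replicates 2, 3 and 5 shared 64 to 75 with each other and replicates 1 and 4 shared 43, while pairs across these libraries shared 24 to 34. Among the first 10 targets the grouping was not the same. There, replicate 4 shared 6, 4 and 5 targets with replicates 2, 3 and 5, but 2 with replicate 1. Replicate 1 had 8 of its first 10 targets to itself, and these held 30.02% of its TPM, but 0.157% to 2.2% of that of the remaining storage cells. Replicate 4 had 4 such targets with 10.7% of its TPM and replicate 3 had 4 with 8.3%, whereas replicate 5 had 1 and replicate 2 had none.

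The spread between storage cell libraries was large at every abundance. The median SD of log2 CPM over the tested targets was 1.02 in storage cells (n = 5) and 0.227 in whole bodies (n = 3). In storage cells it was 0.762 for targets with a mean log2 CPM of 5 to under 7, 1.29 for those of 9 or more and 1.56 for those of 1 to under 3. In whole bodies it did not exceed 0.39 in any class of abundance.

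Some abundant targets were steady across the storage cells. At least 1000 TPM was reached in all 5 storage cell libraries by 19 targets, out of 307 that reached it in any, and in all 3 whole bodies by 147 of 197. Of the 19 targets, 7 are among the 10 leaders and 11 also had at least 1000 TPM in all 3 whole bodies. They were 327 to 1854 bp long with a median of 561 bp, and 13 of them were called higher in storage cells and none lower (edgeR, adjusted p below 0.05), where 13.2% of all targets tested were called higher. Since they were picked by their storage cell level, this count describes them and supports nothing. The narrowest range was that of BV898_08345.t01 (351 bp), singled out after its values were seen. It had 79.0, 76.4 and 101 TPM in whole bodies and 1011, 1135, 1301, 1034 and 1400 TPM in storage cells (log2 fold change 5.46, SE 0.49, edgeR adjusted p = 0.000704).

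The 19 steady targets include BV898_16258.t01, BV898_16259.t01, BV898_16263.t01 and BV898_16264.t01, which have neighbouring numbers and similar lengths of 492 to 519 bp. BV898_16264.t01 had 4244, 9940, 5656, 13756 and 11002 TPM in storage cells and 2965, 2338 and 3275 TPM in whole bodies (log2 fold change 3.32, SE 0.77, edgeR adjusted p = 0.013). BV898_16258.t01 had 1003, 11821, 7657, 3589 and 20691 TPM in storage cells and 1967, 1546 and 1979 TPM in whole bodies (log2 fold change 4.05, SE 1.19, edgeR adjusted p = 0.0316). Its lowest storage cell value was again that of replicate 1. Whether the numbers follow the order on a chromosome was not examined.

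Of the 3 leading whole-body targets, BV898_08387.t01 (936 bp) alone is outside the 10 storage cell leaders. It had 17777, 14854 and 17396 TPM in whole bodies, and 60.8, 168, 36195, 54.8 and 1361 TPM in storage cell replicates 1 to 5. Replicate 3 was above the whole bodies, and the other four lay below the whole bodies. The log2 fold change was 0.44 (SE 2.06, edgeR adjusted p = 0.888), and without storage cell replicate 3 it was -3.23 (adjusted p = 0.0821). On log2(TPM + 1), with all libraries, storage cells were lower by -5.08 (limma adjusted p = 0.0438).

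Changes were then counted over all targets. The test called 32.4% of the 11764 targets tested, 1548 (13.2%) higher and 2266 (19.3%) lower in storage cells (edgeR quasi-likelihood test, adjusted p below 0.05). Targets called higher had a median length of 1011 bp and targets called lower 1551 bp, against 1269 bp for targets not called. Without whole-body replicate 1, 2 or 3, there were 2062, 2229 and 2335 calls, and without storage cell replicate 3 there were 5589. The median log2 fold change of all tested targets was -0.47 on the TMM scale, and the median log2 ratio of mean TPM (0.1 added) was -2.08. The calls were made against a log2 fold change of 0 on the TMM scale and are not corrected for these medians.

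The direction of the calls depended on how the abundance of a target was defined. With classes of mean whole-body TPM, chosen after the values had been seen, the shares of targets called higher and lower changed little over most of the range. At 1 to under 10 TPM in whole bodies, 12.1% of 3171 targets were called higher and 21.8% lower. At 10 to under 100 TPM the shares were 12.5% and 18.4% of 6684 targets, and at 100 to under 1000 TPM they were 14.6% and 18.1% of 1384 targets. Of the 176 targets of 1000 TPM or more, 6.25% were called higher and 19.9% lower. Under 1 TPM, 33.0% of 349 targets were called higher, but a target of this level can enter the test through its storage cell counts. Of the 100 targets with the highest mean whole-body TPM, 5 were called higher and 18 lower, with no call for 77.

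Abundance taken as the mean log2 CPM of both groups gave another picture. Below a log2 CPM of 1, 4.36% of 2480 targets were called higher and 36.8% lower. From 5 to under 7 the shares were 24.9% and 10.8% of 2147 targets, from 7 to under 9 they were 39.5% and 4.41% of 476 targets, and at 9 or more they were 24.1% and 5.36% of 112 targets. The storage cell value is part of this mean, so a target at 0 in storage cells is placed lower and a target that is high there is placed higher. These shares are therefore a description and no evidence that calls go with abundance. Targets called higher, called lower and not called had similar median levels in whole bodies, of 24.2, 20.3 and 22.1 TPM.

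The longer the targets, the lower the storage cells stood relative to whole bodies. The median log2 fold change fell step by step over 6 classes of length. It was 0.85 for 61 targets of less than 300 bp, 0.24 for 1626 targets of 300 to under 600 bp and -0.09 for 3802 targets of 600 to under 1200 bp. For longer targets it was -0.54 (4262 targets of 1200 to under 2400 bp), -1.3 (1671 targets of 2400 to under 4800 bp) and -1.84 (342 targets of 4800 bp or more). The median log2 ratio of mean TPM fell in the same order, from -0.84 to -2.98, so that no class was above 0 on that scale. The share of targets called higher dropped from 24.6% in the shortest class to 2.63% in the longest, and the share called lower was 18.0% and 38.0% there.

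The gradient was also measured library by library. For each library the slope of log2 CPM, centred on the mean over the 8 libraries, was taken over log2 length of the tested targets, a measure added after the class medians had been seen. The slopes were 0.38, 0.295 and 0.223 in whole bodies and -0.12, -0.0208, -0.379, -0.0657 and -0.312 in storage cells. The groups did not overlap, and replicates 3 and 5 of the storage cells were the lowest. The mean difference was -0.479 log2 CPM per doubling of length (exact permutation test, two-sided, p = 0.0179). With log2(TPM + 1) in place of log2 CPM it was -0.0458 and did not pass (exact permutation p = 0.786).

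The slopes were also taken within bands of whole-body level, which were chosen after the values had been seen. Under 10 TPM in whole bodies, the slope of storage cells minus that of whole bodies was -0.826 on log2 CPM and -0.314 on log2(TPM + 1) (exact permutation p = 0.0179 for both). At 10 to under 100 TPM it was -0.448 and -0.221 (exact permutation p = 0.0357 and 0.0714). At 100 TPM or more it was -0.2 and -0.0564 (exact permutation p = 0.196 and 0.768). All 6 differences had the same sign, 3 had an unadjusted p below 0.05, and the differences between the bands were not tested. Bands of the mean log2 CPM of both groups, which the storage cell values help to set, gave -0.602 below 3, -0.654 from 3 to under 7 and -0.121 at 7 or more. Their exact permutation p-values were 0.0179, 0.0179 and 0.536. On log2(TPM + 1) the differences in these bands were 0.218, -0.406 and -0.125 (exact permutation p = 0.0893, 0.0179 and 0.554). The sign in the lowest of these bands thus depended on the measure, and the highest band did not pass on either.

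**Figure D5:**
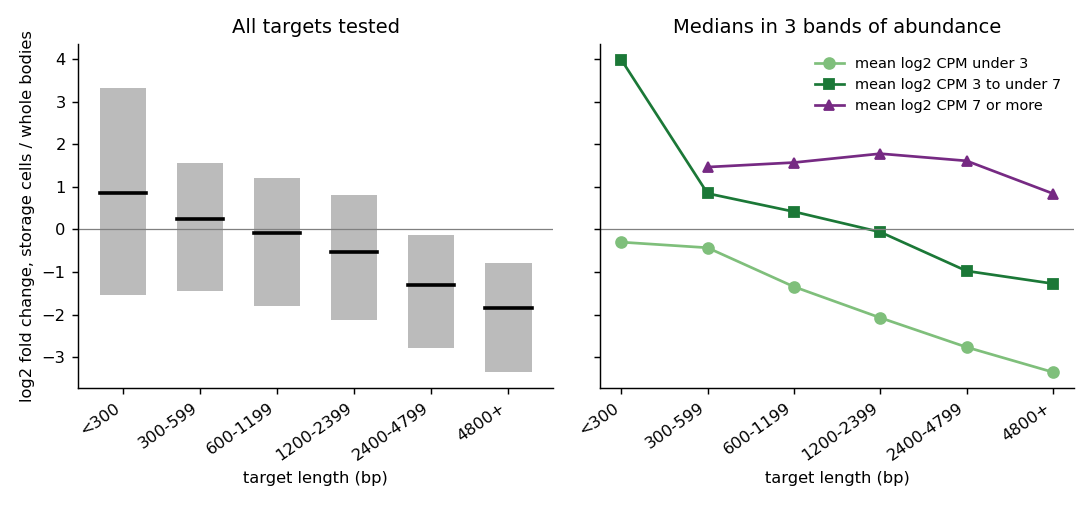
Log2 fold change of storage cells against whole bodies on TMM-scaled counts (y axis) by target length (x axis). Left, the median (line) and the middle 50% (grey box) of all targets tested, falling from 0.85 to -1.84. Right, medians in 3 bands of abundance (mean log2 CPM of both groups, which the storage cell values help to set), between 1.46 and 1.78 in the top band for the classes from 300 to under 4800 bp. The longest class of the top band has 10 targets and the shortest of the middle band has 9.

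Detection went the other way with length. Of targets at 10 to under 100 TPM in whole bodies, 28.5%, 22.8%, 11.6%, 29.6% and 26.3% of those of 300 to under 600 bp were at 0 in storage cell replicates 1 to 5. Among those of 2400 to under 4800 bp the shares were 5.66%, 2.95%, 2.15%, 8.72% and 9.97%. Long targets were thus at 0 less often, and they also carried more counts at equal TPM, with a median whole-body count of 495 in the longer class and 49.3 in the shorter one.

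The balance of calls was reversed when the trend on length was taken out together with the level of each library. With the smooth trend of each library on log2 length removed, 2878 targets were called higher and 1427 lower (edgeR, adjusted p below 0.05). The median log2 fold change of all targets moved from -0.47 to 0.6. The smooth trend includes the mean level of each library, so its removal also moved the zero of the fold change. The median rose even in the class under 300 bp, from 0.85 to 1.01. How much of the reversal goes with length was not tested. All 1548 targets called higher before were still called higher, and 1388 of the 2266 called lower were still called lower. Of the 3814 calls, 156 had an estimate of the opposite sign.

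By share of TPM, no length class passed a test between the groups. The TPM-weighted median length, at which 50% of the TPM lies in shorter targets, was 786, 786 and 744 bp in whole bodies and 837, 666, 627, 828 and 612 bp in storage cells. Replicates 1 and 4 of the storage cells lay above the whole bodies and the other three below. The difference of -58 bp did not pass (exact permutation test, two-sided, p = 0.411). Targets of 300 to under 600 bp held 33.9% ± 1.04 of the TPM in whole bodies (SD, n = 3) and 24.3%, 40.7%, 45.03%, 36.8% and 48.2% in the storage cell libraries. Those of 1200 to under 2400 bp held 20.5% ± 1.37 in whole bodies (SD, n = 3) and 29.5%, 16.6%, 12.1%, 31.4% and 13.98% in storage cells. None of the 6 classes passed (exact permutation tests, adjusted p of 0.321 to 0.982, unadjusted p of at least 0.0536). Without the 10 leading targets, the difference in median length was -6 bp (exact permutation p = 0.964).

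At the ends of the length range there were targets that passed in either direction. Among the shortest, BV898_10940.t01 (294 bp) stood at 17.5, 9.37 and 3.12 TPM in whole bodies and at 1059, 918, 927, 107 and 1013 TPM in storage cells, all above the whole bodies (log2 fold change 8.0, SE 1.11, edgeR adjusted p = 0.00294). BV898_04541.t01 (297 bp) had 179, 119 and 194 TPM in whole bodies and no count in any storage cell library, which is at least 98.2-fold lower when 3 counts summed over all storage cells are taken as the limit (edgeR adjusted p = 0.00561). Both lie in a class in which only 61 of 1719 listed targets were tested.

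Among the longest, BV898_08135.t02 (7518 bp) had 39.5, 31.8 and 38.2 TPM in whole bodies and 69.0, 30.5, 66.5, 80.2 and 36.5 TPM in storage cells. On TPM the groups overlapped. The log2 fold change was 2.32 on TMM-scaled counts (SE 0.54, edgeR adjusted p = 0.013), a call that was lost without any of the 3 whole bodies (adjusted p of 0.0552 to 0.0735) and when targets of a gene were summed (adjusted p = 0.0503). On log2(TPM + 1) the difference was 0.53 (limma adjusted p = 0.24). BV898_06842.t02 (4851 bp) fell, from 136, 132 and 76.9 TPM in whole bodies to 0.698, 9.49, 1.74, 1.82 and 0.131 TPM in storage cells (log2 fold change -3.97, SE 0.99, edgeR adjusted p = 0.0169). The call was lost without whole-body replicate 1 (adjusted p = 0.0546) and with the trend on length removed (adjusted p = 0.0897). Each belongs to a gene with 2 targets, and their counts were not whole in any of the 8 libraries, so their levels are uncertain.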

How the data were processed

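Per the submitters' processing notes, bcl2fastq 2 and kallisto 0.46.1 were used; for the transcript set, genome build and kallisto options, the sources used here give nothing. The authors deposited 1 table per library with estimated counts (not normalized) and TPM (count over effective length, scaled to a common total), per the file headers. Effective lengths were the same, within 0.001 bp, in all 8 libraries for 99% of targets under 600 bp and for 7.5% of longer ones. Of the lengths, 99.2% are multiples of 3, so these are coding lengths.

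Estimated counts were rounded and fitted with edgeR 4.0.16 in R 4.3.3 (filterByExpr, TMM, quasi-likelihood test of the 5 storage cell against the 3 whole-body libraries, no covariate, Benjamini-Hochberg over 11764 targets, threshold 0.05). The fit was tested on simulated data, with a pass criterion only for the case of equal spread in both groups. The spread differed here (median SD of log2 CPM 1.02 in storage cells, 0.227 in whole bodies), so that criterion does not cover these libraries. Standard errors are the log2 fold change over the square root of F. TMM factors were 1.85 to 2.04 in whole bodies and 0.506 to 0.964 in storage cells. Single values per library were compared by exact permutation of the 56 splits, counting splits with a difference at least as large in either direction. P-values set the difference between the groups against the spread between these libraries. Alternatives used DESeq2 1.42.0, limma 3.58.1 and libraries thinned to 5437112 counts. Python 3.11.15, numpy 2.4.6 and pandas 2.3.3 were used.

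Named targets are the 10 leading in storage cells, the 3 leading in whole bodies and, for the shortest and longest class with calls both ways, the most abundant call in each direction; others are stated as chosen later. Members, classes and lists were chosen with earlier results of these data known. Gene lists and cell type markers planned by product name were not run, because no identifier matched.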

Additional observations from a re-analysis of the deposited data

Results flagged for a closer look

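In the 5 storage cell libraries, 30 values were checked for 1 library standing far off, meaning that its gap to the nearest library made up more than 0.71 of the range. Chance picks out about 1 in 20 groups of normally distributed values that were not chosen by their size, and 6 were picked out here. All 6 are unlogged TPM values of single targets, whose distribution was not examined, so this rate is no guide to them. The first 3 of them were also chosen for a high mean TPM in storage cells, which 1 high library can give. BV898_13827.t01 stood at 91019 TPM in replicate 1 against at most 4622 TPM in the other four. BV898_16073.t01 stood at 52081 TPM in replicate 1 against at most 2443 TPM. BV898_02514.t01 stood at 41286 TPM in replicate 1 with the next highest library at 10045 TPM. BV898_08387.t01 stood at 36195 TPM in replicate 3 against at most 1361 TPM. BV898_10940.t01 was low in replicate 4, at 107 TPM against at least 918 TPM in the others. BV898_06842.t02 stood at 9.49 TPM in replicate 2 against at most 1.82 TPM.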

How the results depend on the processing

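The number of calls depended on the model. Against 3814 calls (1548 higher, 2266 lower), voom with quality weights gave 7420 (5316 lower), limma on log2(TPM + 1) gave 8690 (646 higher, 8044 lower) and on log2(TPM + 0.1) 8543 (641 higher, 7902 lower). A minimum of 10 counts in 5 libraries left 2343 calls (1051 lower). Removing the length trend together with the level of each library gave 2878 higher and 1427 lower. The cause of these differences was not tested. DESeq2 gave 5331 calls. The share of calls that were higher was 40.6% in the main fit, 38.4% to 44% with other scalings of counts, 55.1% with the stricter minimum and 28.4% with voom. Leaving out single libraries gave 2062 to 5589 calls, 650 to 2003 higher and 1412 to 3586 lower. With the replicate block there were 319 calls (187 higher, 132 lower). Same-numbered libraries did not deviate together (r of 0.03, -0.038 and 0.037 over 11764 targets) and not every library correlated best with its own number. These correlations cannot exclude that the numbers pair the samples. The labels do not say whether they do, and the main fit treats the libraries as unpaired. Over replicates 1 to 3 alone, as a replicate block, the difference in targets holding 50% of the TPM was -280 and the slope difference -0.473 (exact sign-flip p = 0.25 each, the smallest possible).

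The number of targets holding 50% of the TPM kept its direction and passed with counts in place of TPM, at 90% of the TPM, on a log2 scale, after thinning and with genes in place of targets. It ran from -314 to -267 with single libraries left out. The slope on length was -0.0458 with log2(TPM + 1) (exact permutation p = 0.786) and -0.519 to -0.429 without single libraries. The difference in TPM-weighted median length ran from -88.8 to -32.5 bp without single libraries and passed in none of these. With the replicate block, the calls of BV898_18925.t01, BV898_16263.t01, BV898_00195.t01, BV898_04541.t01, BV898_08135.t02 and BV898_06842.t02 were lost (edgeR adjusted p = 0.0626, 0.156, 0.227, 0.098, 0.103 and 0.0712). BV898_01325.t01, BV898_07018.t01, BV898_02514.t01, BV898_01079.t01 and BV898_16259.t01 passed with DESeq2 (adjusted p = 5.1e-07, 3.47e-05, 0.00133, 0.00171 and 0.0411) and the first 4 of them with voom too (adjusted p of up to 0.0163). Ranked by share of counts, 6 of the 10 leaders stayed, and 7 to 10 without single libraries.

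Signs turned for values that had not passed. With limma on log2(TPM + 1) and log2(TPM + 0.1), BV898_16259.t01 gave -0.27 and -0.27, BV898_13827.t01 -0.90 and -1.26, BV898_16073.t01 -3.41 and -4.56 and BV898_08387.t01 -5.08 and -5.09 (adjusted p = 0.0438 and 0.0493). With voom, BV898_16073.t01 gave -2.40 and BV898_08387.t01 -4.22 (adjusted p = 0.0107); the latter gave -4.16 with the replicate block and -3.23 to 0.77 without single libraries. The share of TPM at 1200 to under 2400 bp differed by -1.03 points in counts and by -2.45 to 2.36 without single libraries, and that of 4800 bp or more by -0.0065 to 0.403. The class above 0 and under 1 TPM differed by -25.9 targets after thinning and by -314 without the 100 leaders of each library, which also gave 84.6 at 1000 TPM or more. Depth limits statements on targets at 0. The low count of targets tested limits the class under 300 bp.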
